A study of Mus musculus with 21 samples.

Results

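Sequencing libraries of transfer RNA (tRNA) from the brains of Polr3a mutant and wildtype mice were compared to ask whether the mutation moved individual tRNAs by different amounts in the cerebellum and the cerebrum. All 21 of the 21 libraries of the series entered the comparison. The 204 tRNAs that both deposited count tables list, of 213 that either lists, were its members: 182 encoded in the nucleus and 22 in the mitochondrial genome. For each tRNA the quantity of interest was the log2 fold change of mutant over wildtype in cerebellum minus the same fold change in cerebrum, called the difference of genotype effects below. A positive value means that the mutant level, relative to wildtype, was lower in cerebrum than in cerebellum.

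The mice were of the C57BL/6J strain. Mutants carried the allele that the labels call Polr3a mutant, and controls are labelled wildtype. Both genotypes received tamoxifen for recombination on postnatal day 28, and brains were collected on day 42. The 4 groups were cerebrum mutant (n = 4), cerebrum wildtype (n = 6), cerebellum mutant (n = 5) and cerebellum wildtype (n = 6), with males and females in each. The labels do not give the promoter that drives the recombinase, the allele's sequence change or the share of cells that recombined, nor do they state that each library is its own animal. The p-values therefore measure the spread between these libraries. Reads of tRNA hold no Polr3a messenger RNA and no markers of cell types, so neither the genotype nor the tissue labels could be checked against a defining gene.

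The Polr3a protein is a catalytic core subunit of RNA polymerase III, which transcribes nuclear tRNA genes, 5S ribosomal RNA and other short RNAs. Mitochondrial tRNAs are made inside the organelle by a separate polymerase. Inherited defects of POLR3A in people cause a disease of brain myelin. Several nuclear genes can encode tRNAs with one anticodon but different bodies. These are called isodecoders, and a name such as Thr-AGT-6-1 gives the amino acid, the anticodon, the isodecoder and the gene copy. Names without a copy number join several gene copies.

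Total counts ran from 4353008 to 7588804 in the cerebrum libraries. Cerebellum libraries fell into 2 depth classes: 6 libraries with 1612722 to 2272625 counts (mutant 1 and wildtype libraries 1 to 4 and 6) and 5 libraries with 4831620 to 7110175 counts (mutants 2 to 5 and wildtype 5). Within the cerebellum, deep libraries were thus mostly mutant and shallow ones mostly wildtype. Cerebellum mutant 5 stood apart in composition. On a scale over 158 nuclear tRNAs, where 0 is the mean of the cerebrum wildtype libraries and 1 the mean of the cerebellum wildtype libraries, it lay at 0.753, while the other cerebellum libraries lay between 0.927 and 1.11 and the cerebrum libraries between -0.282 and 0.176. Mitochondrial tRNAs held 21.2% and 19.3% of the counts of cerebellum mutants 1 and 5, and 14.0% to 16.4% of those of the other 3 cerebellum mutants.

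The genotype effect differed between the tissues for 10 of the 204 tRNAs (edgeR quasi-likelihood test of the interaction, Benjamini-Hochberg adjusted p under 0.05), which is 4.90% of those tested. All 10 were nuclear, and all 10 differences were positive. In the cerebrum the mutant over wildtype fold changes of these 10 ran from -1.68 to -0.55 on the log2 scale, and in the cerebellum from -0.57 to 0.19. They were 2 isodecoders of Thr-AGT, 2 of Ala-AGC, and 1 each of Val-AAC, Val-CAC, Leu-CAA, Met-CAT, Ser-GCT and Tyr-GTA. At an unadjusted p under 0.05, 22 tRNAs had a positive and 8 a negative difference.

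**Figure D1:**
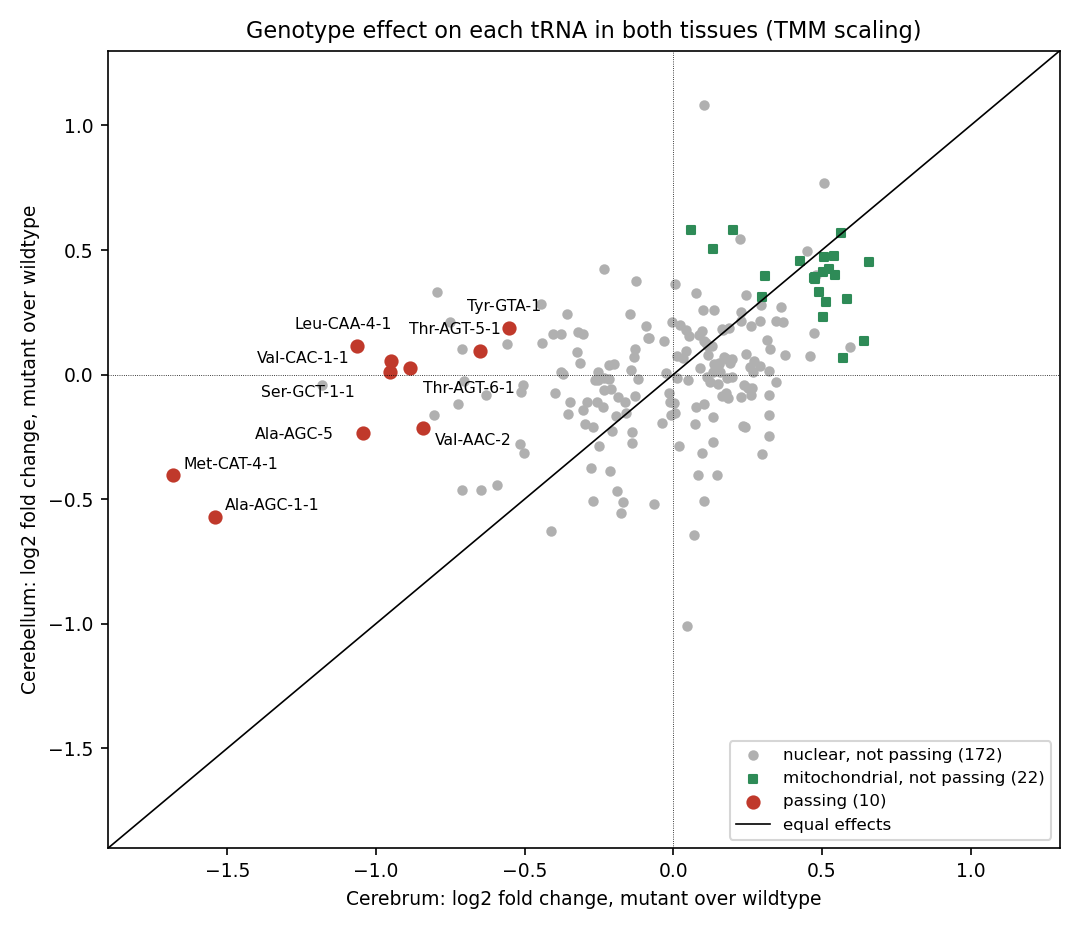
Each point is 1 of the 204 tRNAs, placed by its log2 fold change of mutant over wildtype in cerebrum (x axis) and in cerebellum (y axis), with the line of equal effects. The 10 tRNAs that passed (red) lie left of the line at cerebrum values of -0.55 and below, and the 22 mitochondrial tRNAs (green squares) lie above 0 on both axes.

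The difference had a median of 0.00 over the 204 tRNAs, with quartiles at -0.19 and 0.24. The genotype effects were more spread in the cerebrum (SD over tRNAs 0.402) than in the cerebellum (SD 0.274), and 40 against 16 tRNAs lay more than 0.5 log2 units from 0. The gap was smaller over the 172 nuclear tRNAs that did not pass, with SDs of 0.308 and 0.254 and 18 against 11 beyond 0.5. Across the 182 nuclear tRNAs the effects in the 2 tissues had a Pearson correlation of 0.266 and a Spearman correlation of 0.265. These values describe genes of the same 21 libraries, which are not independent replicates. In bulk tissue, fewer cells of a type and less RNA per cell cannot be told apart.

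The largest of the 10 differences belonged to elongator Met-CAT-4-1, a methionine tRNA used inside the coding sequence. Its level was 174.2, 192.3, 248.5, 306.7, 226.7 and 133.4 CPM (read counts scaled to a common library size) in the 6 cerebrum wildtype libraries and 54.4, 85.1, 58.7 and 67.7 CPM in the 4 cerebrum mutants. In the cerebellum it was 266.0, 199.4, 256.9, 329.9, 315.1 and 381.1 CPM in the wildtype libraries and 156.4, 200.2, 382.9, 170.4 and 190.1 CPM in the mutants. All cerebrum mutants lay below all cerebrum wildtype libraries. In the cerebellum the groups overlapped, and mutant 3 was the highest of all 11 libraries. The fold changes were -1.68 ± 0.245 (SE) in cerebrum and -0.40 ± 0.216 in cerebellum, a difference of 1.28 ± 0.319 (edgeR adjusted p = 0.0133).

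Leucine tRNA Leu-CAA-4-1, the least counted of 4 isodecoders of an anticodon family whose genes contain introns, came next. Cerebrum wildtype libraries held 116.3, 116.2, 143.2, 209.1, 180.3 and 115.3 CPM, and cerebrum mutants 57.9, 80.3, 66.5 and 75.8 CPM. Cerebellum wildtype libraries held 280.7, 269.4, 251.6, 354.8, 304.6 and 308.7 CPM, and cerebellum mutants 354.5, 396.0, 389.6, 286.9 and 171.2 CPM. The cerebrum groups did not overlap, while in the cerebellum mutants 2 and 3 lay above all wildtype libraries and mutant 5 lay below all of them. The difference was 1.18 ± 0.276 (edgeR adjusted p = 0.00992), from -1.06 ± 0.208 in cerebrum and 0.11 ± 0.186 in cerebellum. Without cerebellum mutant 5 it was 1.34.

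For Val-CAC-1-1, a valine tRNA, the cerebrum wildtype libraries held 298.9, 351.3, 346.5, 342.2, 333.0 and 199.4 CPM and the cerebrum mutants 153.0, 190.8, 151.9 and 149.5 CPM. The cerebellum wildtype libraries held 504.6, 434.1, 478.1, 579.6, 467.9 and 508.5 CPM and the mutants 616.5, 543.9, 604.1, 511.3 and 299.8 CPM. Here too the cerebrum groups were separate, the cerebellum groups overlapped, and cerebellum mutant 5 was the lowest of the 11 cerebellum libraries. Fold changes of -0.95 ± 0.175 in cerebrum and 0.05 ± 0.159 in cerebellum gave a difference of 1.01 ± 0.235 (edgeR adjusted p = 0.00992).

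Both Val-AAC-2 and its sister Val-AAC-4-1 carry valine on an anticodon that begins with A, a base that is edited to inosine in the mature tRNA. Val-AAC-2 measured 355.6, 434.9, 466.7, 470.2, 504.1 and 369.7 CPM in cerebrum wildtype libraries and 195.9, 251.8, 285.8 and 233.0 CPM in cerebrum mutants. In cerebellum it measured 542.8, 415.1, 518.2, 532.6, 465.2 and 509.8 CPM in wildtype libraries and 416.5, 447.0, 383.6, 443.8 and 448.9 CPM in mutants. The cerebrum mutants were all lower, and the cerebellum groups overlapped because wildtype 2 lay within the range of the mutants. Its difference of 0.63 ± 0.183 passed (edgeR adjusted p = 0.0408), and it passed in only 9 of the 21 fits that each left out 1 library, with adjusted p from 0.0205 to 0.104. Val-AAC-4-1 had nearly the same difference, 0.68 ± 0.215, and did not pass (edgeR adjusted p = 0.0629).

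Threonine tRNAs gave the 2 smallest p-values. Thr-AGT-6-1 was at 1118, 859.5, 1428, 1316, 1563 and 1287 CPM in cerebrum wildtype libraries and at 654.5, 747.6, 656.2 and 676.0 CPM in cerebrum mutants. In cerebellum it was at 752.8, 681.2, 846.4, 709.7, 819.2 and 836.5 CPM in wildtype libraries and at 705.9, 727.4, 919.9, 639.9 and 948.3 CPM in mutants. The 4 cerebrum mutants thus lay within the range of the cerebellum mutants, and all cerebrum wildtype libraries but wildtype 2 lay above every other library. The difference was 0.91 ± 0.198 (edgeR adjusted p = 0.00916), from -0.88 ± 0.147 in cerebrum and 0.03 ± 0.135 in cerebellum.

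Thr-AGT-5-1 had a similar order. It was at 890.7, 655.1, 841.9, 806.4, 781.9 and 784.1 CPM in cerebrum wildtype libraries and at 497.0, 577.1, 468.3 and 479.4 CPM in cerebrum mutants. Cerebellum wildtype libraries had 557.9, 515.4, 529.5, 560.3, 497.9 and 583.1 CPM, and cerebellum mutants 595.4, 562.1, 632.8, 470.0 and 625.2 CPM. Only the cerebrum wildtype group stood apart, with its lowest library above every other one. The difference was 0.74 ± 0.164 (edgeR adjusted p = 0.00916), from -0.65 ± 0.121 in cerebrum and 0.09 ± 0.112 in cerebellum.

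Of the alanine tRNAs with the anticodon AGC 2 passed, and both had fold changes below 0 in the cerebellum as well, though nearer to 0 than in cerebrum. Ala-AGC-1-1 had 131.3, 126.3, 145.0, 176.9, 161.7 and 139.7 CPM in cerebrum wildtype libraries and 44.6, 56.0, 54.7 and 46.1 CPM in cerebrum mutants. It had 232.4, 211.2, 170.2, 264.9, 292.4 and 244.1 CPM in cerebellum wildtype libraries and 125.4, 165.0, 240.7, 140.9 and 122.4 CPM in cerebellum mutants. Of the cerebellum mutants 4 lay below every wildtype library and mutant 3 lay among them. The fold changes were -1.54 ± 0.191 in cerebrum and -0.57 ± 0.169 in cerebellum, which leaves a difference of 0.97 ± 0.249 (edgeR adjusted p = 0.0148).

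Ala-AGC-5 held 1244, 1221, 1710, 1760, 2289 and 1222 CPM in cerebrum wildtype libraries and 711.1, 895.2, 750.1 and 700.9 CPM in cerebrum mutants. In cerebellum the values were 2633, 2921, 2128, 2718, 3789 and 3146 CPM for wildtype and 2531, 2707, 2830, 2410 and 1796 CPM for mutants. The cerebrum groups were separate and the cerebellum groups overlapped, with mutant 5 again the lowest. Fold changes of -1.04 ± 0.180 and -0.24 ± 0.163 gave a difference of 0.81 ± 0.240 (edgeR adjusted p = 0.0437), which passed in 6 of the 21 fits that each left out 1 library, with adjusted p from 0.0085 to 0.107.

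Serine tRNA Ser-GCT-1-1, which like leucine tRNAs has a long variable arm, had 1085, 748.5, 1047, 1100, 1285 and 841.1 CPM in cerebrum wildtype libraries and 747.5, 604.5, 339.2 and 409.5 CPM in cerebrum mutants. In cerebellum it had 828.1, 796.0, 899.0, 834.5, 874.9 and 970.4 CPM in wildtype libraries and 928.3, 1102, 968.4, 763.4 and 602.6 CPM in mutants. The cerebrum groups only just separated, by 747.5 against 748.5 CPM, and the cerebellum mutants lay on both sides of the wildtype range. Its difference was 0.96 ± 0.251 (edgeR adjusted p = 0.0161), from -0.95 ± 0.188 and 0.01 ± 0.171. Without cerebrum mutant 3 or without cerebrum mutant 4 it did not pass, with adjusted p of up to 0.0686.

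Tyr-GTA-1, the most counted tyrosine tRNA and a member of an intron-containing family, was the one abundant tRNA among the 10. It was at 20910, 21260, 21470, 21250, 17170 and 15360 CPM in cerebrum wildtype libraries and at 12030, 16300, 10170 and 14850 CPM in cerebrum mutants. Cerebellum wildtype libraries had 11790, 12670, 12600, 10330, 11450 and 12580 CPM, and cerebellum mutants 12930, 15280, 14540, 13430 and 11580 CPM. It was also the one whose cerebrum groups overlapped, since mutant 2 lay above wildtype 6, while 4 of the 5 cerebellum mutants lay above every cerebellum wildtype library. The fold changes of -0.55 ± 0.133 and 0.19 ± 0.122 had opposite signs, and their difference was 0.74 ± 0.180 (edgeR adjusted p = 0.0118).

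**Figure D2:**
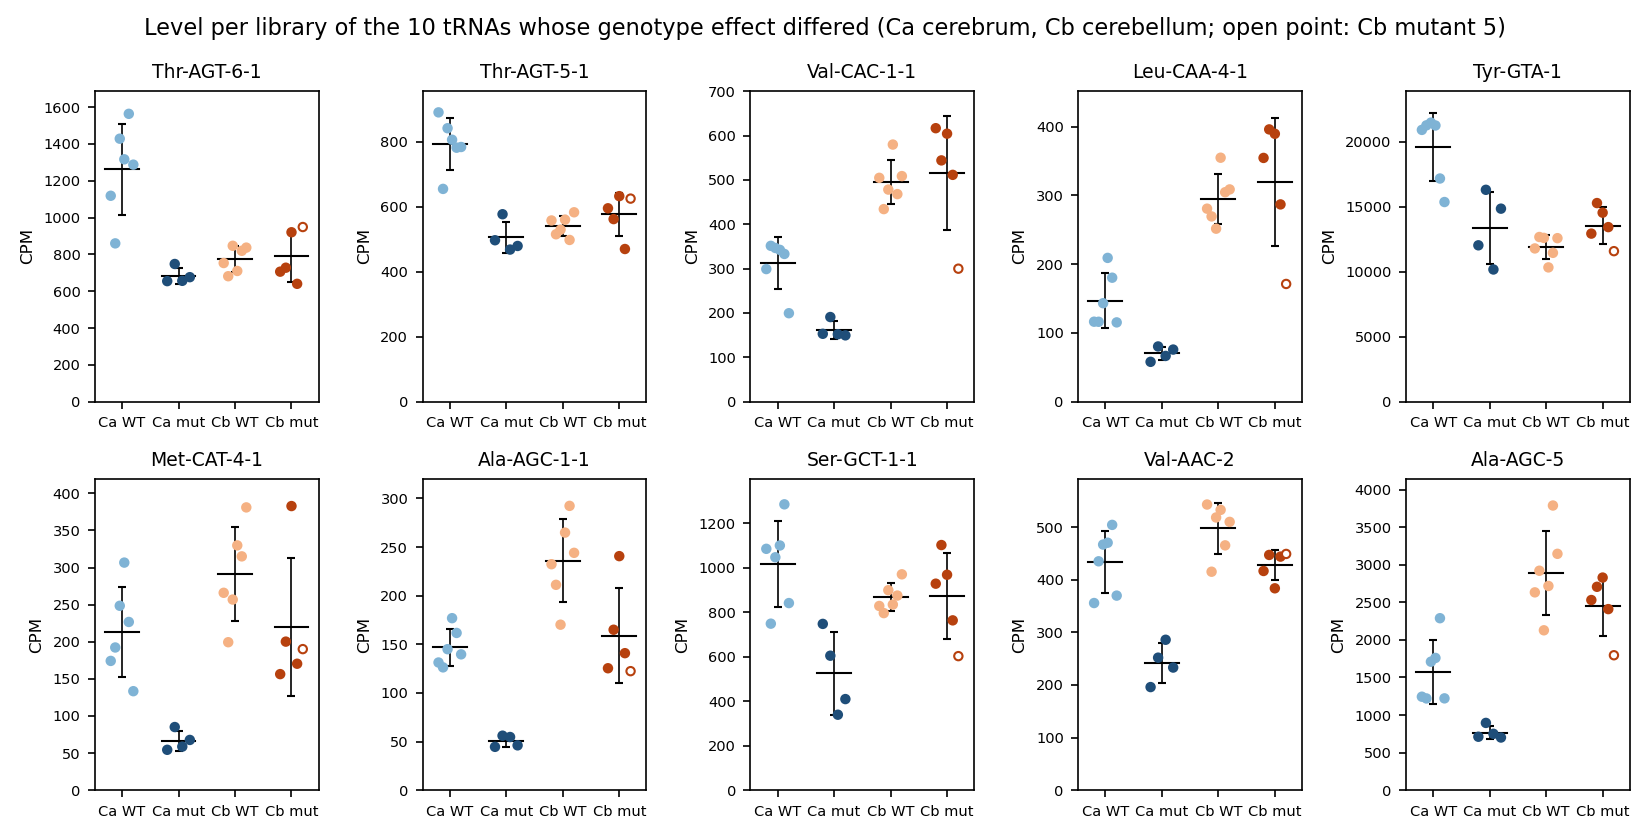
Level of the 10 tRNAs in CPM (counts scaled to a common library size, linear axis from 0), 1 point per library, for cerebrum (Ca) and cerebellum (Cb) wildtype (WT) and mutant (mut) groups, with the mean and SD as bars and cerebellum mutant 5 as an open point. In 9 of the 10 panels every cerebrum mutant lies below every cerebrum wildtype library, and in no panel do the cerebellum mutants lie wholly below the cerebellum wildtype libraries.

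In 9 of the 10 tRNAs all cerebrum mutants thus lay below all cerebrum wildtype libraries. The same held for 7.35% of the 204 tRNAs, the 9 among them. The 10 were chosen by a test on these same values, so this order is a description and no separate evidence. In none of the 10 did all cerebellum mutants lie below all cerebellum wildtype libraries, a pattern seen in 0.980% of the 204. The wildtype means of 6 of the 10 were higher in cerebellum than in cerebrum, and those of both Thr-AGT isodecoders, Tyr-GTA-1 and Ser-GCT-1-1 were higher in cerebrum. Cerebellum mutant 5 was the lowest cerebellum mutant for 6 of the 10, and for 6 it lay below all cerebellum wildtype libraries. Neither these counts nor that of the wildtype means was taken over all 204 tRNAs, so they do not set the 10 apart. With cerebellum mutant 5 left out, 21 tRNAs passed, 15 with a positive and 6 with a negative difference, and the 10 were among them. Without cerebellum mutants 1 and 5, the count was 27, of which 12 were negative, and again all 10 passed.

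How firmly these calls stand depended on the scaling and on the depth classes of the cerebellum. All 10 kept a positive difference under every alternative run. None passed when libraries were scaled to the spike-in RNA, where the median difference over all 204 tRNAs was -0.18 and the 10 differences ran from 0.39 for Val-AAC-2 to 1.10 for Met-CAT-4-1. With the depth class as a covariate 3 passed, Thr-AGT-5-1 (0.81), Val-CAC-1-1 (1.14) and Leu-CAA-4-1 (1.22). With the shallow cerebellum class alone, 1 mutant against 5 wildtype libraries, Val-CAC-1-1 (1.25) and Leu-CAA-4-1 (1.34) passed. With the deep class alone, 4 mutants against 1 wildtype library, none did, and the 10 differences ran from 0.40 for Ala-AGC-5 to 1.27 for Met-CAT-4-1. In both of these fits the lone library is assumed to vary like the others.

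**Figure D3:**
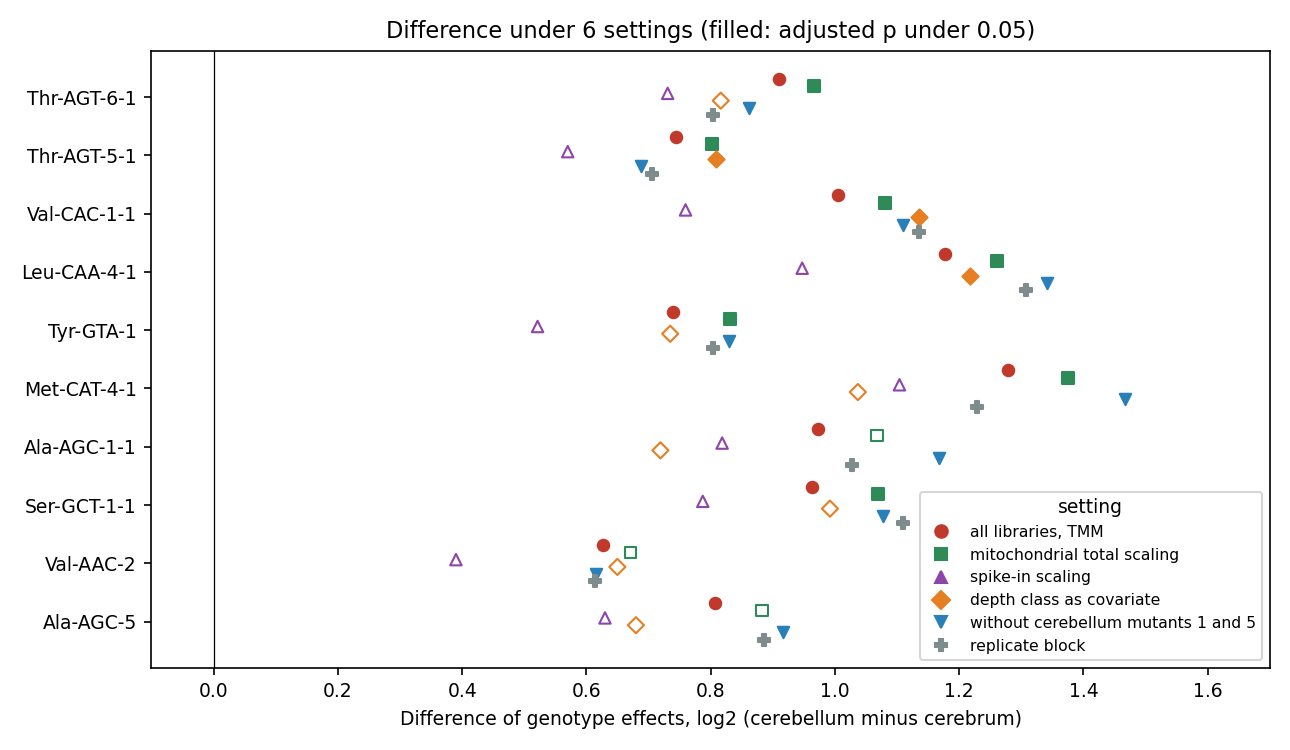
Difference of genotype effects (log2, cerebellum minus cerebrum) of the 10 tRNAs under 6 settings, 1 symbol per setting, filled where the adjusted p was under 0.05. All symbols lie right of 0, all 10 are open under spike-in scaling, and 3 are filled with the depth class as a covariate.

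The authors' deposited tables of tRNA fold changes, 1 per tissue, were set side by side in the same way. The cerebrum column had the opposite sign to the counts and was multiplied by -1. In the authors' deposited tables the differences of the 10 tRNAs ran from 0.74 for Val-AAC-2 to 1.43 for Met-CAT-4-1, all above 0 and all within the highest 20 of 204, beside a median of 0.10 over all 204. They come from the same libraries and are not separate evidence.

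Next below the threshold were Phe-GAA-2-1, a phenylalanine tRNA (0.68 ± 0.216, edgeR adjusted p = 0.0629), Val-AAC-4-1, and Glu-CTC-1, a glutamate tRNA (-0.48 ± 0.156, edgeR adjusted p = 0.0640). Glu-CTC-1 had the lowest p among negative differences. Its cerebrum levels had medians of 24840 CPM in wildtype libraries and 31820 CPM in mutants, and its cerebellum medians were 35600 and 30830 CPM. The tRNAs that follow by p were Met-CAT-3-1 (0.73), Thr-CGT-3-1 (0.50), Thr-CGT-4-1 (0.47), Arg-TCT-1-1 (-0.57), mitochondrial Phe-GAA (0.52), Val-CAC-3-1 (0.46) and Lys-TTT-2 (0.64), with adjusted p from 0.0665 to 0.196. Thr-CGT-3-1 differed from the 10 in its pattern: all 5 cerebellum mutants, at 2058 to 2535 CPM, lay above the 6 cerebellum wildtype libraries, at 1584 to 2002 CPM, while the cerebrum groups overlapped.

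The 10 were also described by abundance, anticodon and gene copy. Passing a test of counts depends on the number of counts, so abundance is not independent of the choice. Sorted into terciles by their mean CPM over all libraries, 9 of the 10 were in the middle tercile of nuclear tRNAs, 1 in the highest and 0 in the lowest. The anticodon began with A in 5 of the 10, beside 34 of the 182 nuclear tRNAs. Families with introns gave 2 of the 10 and 16 of the 182. A copy number, which marks a single gene, stood in the names of 7 of the 10 and 126 of the 182. The most counted isodecoder of its anticodon was 1 of the 10 (Tyr-GTA-1) and 50 of the 182. The median share of the anticodon held by the 10 in cerebrum wildtype libraries was 5.10%, beside 8.93% over all nuclear tRNAs. These counts are a description without a test.

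By amino acid, passing tRNAs were 2 of 20 for alanine, 2 of 14 for threonine, 2 of 11 for valine, and 1 each of 16 for leucine, 6 for elongator methionine, 14 for serine and 5 for tyrosine. No other amino acid had one. The median difference was 0.69 for elongator methionine tRNAs and 0.39 for valine tRNAs, beside 0.02 over all nuclear tRNAs. All 3 histidine tRNAs lay above 0 with a median of 0.49, and none passed. These medians weigh each isodecoder alike, whatever its counts. Summed by anticodon, with library scaling computed anew on those totals, the difference was 0.10 for Met-CAT and 0.19 for His-GTG. It was 0.54 for Val-AAC, -0.07 for Val-CAC and -0.05 for Val-TAC, and none of these totals passed. At the lower end, the 9 glycine tRNAs had a median of -0.25, the 5 glutamate tRNAs of -0.22 and the 2 aspartate tRNAs of -0.32, and again none passed.

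Nuclear initiator methionine tRNA, which starts proteins made outside mitochondria, had differences below 0 in all 3 rows, none of which passed. The value was -0.45 ± 0.234 for iMet-CAT-1, -0.32 ± 0.310 for iMet-CAT-2-1 and -0.35 ± 0.350 for iMet-CAT-3-1, with adjusted p from 0.343 to 0.701. iMet-CAT-1 was at 13560, 19080, 17190, 16000, 21260 and 17820 CPM in cerebrum wildtype libraries and at 22110, 19340, 20530 and 20750 CPM in cerebrum mutants. In cerebellum it was at 17600, 11890, 21710, 12180, 11930 and 16500 CPM in wildtype libraries and at 11780, 11280, 11070, 12260 and 19720 CPM in mutants. The highest cerebellum mutant was mutant 5, near the cerebrum libraries, and the wildtype libraries spread over a wide range. Selenocysteine tRNA (SeC-TCA-1-1), whose gene has an upstream promoter unlike those of other tRNAs, had a difference of -0.44 ± 0.211 (edgeR adjusted p = 0.315). Without cerebellum mutant 5, iMet-CAT-1 (-0.64, edgeR adjusted p = 0.0419) and SeC-TCA-1-1 (-0.59, edgeR adjusted p = 0.0425) passed. The signs of iMet-CAT-2-1 and iMet-CAT-3-1 differed between the depth classes, while the far more abundant iMet-CAT-1 was below 0 in both. Within the deep cerebellum class iMet-CAT-2-1 was 0.44, iMet-CAT-3-1 0.65 and iMet-CAT-1 -0.054, and within the shallow class the values were -0.99, -1.02 and -0.68. The deep class holds 1 wildtype library and the shallow class 1 mutant, so these values rest on single libraries.

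None of the 5 Arg-TCT tRNAs, an intron-containing arginine family with a brain-enriched member, passed at the level of single tRNAs. Arg-TCT-4-1, that member, was at 1181 to 1597 CPM in cerebrum wildtype libraries and 1493 to 2440 CPM in cerebrum mutants, and at 515.0 to 684.5 CPM and 634.3 to 908.7 CPM in the cerebellum. Its mutant over wildtype fold changes were 0.45 in cerebrum and 0.49 in cerebellum, and their difference was 0.05 ± 0.195 (edgeR adjusted p = 0.934). Scaled to the spike-in, that difference was -0.09. Arg-TCT-1-1 had -0.57 ± 0.216, Arg-TCT-2-1 0.05 ± 0.221, Arg-TCT-3-1 -0.16 ± 0.217 and Arg-TCT-5-1 0.25 ± 0.245. Isoleucine tRNAs Ile-TAT-1-1 (0.06 ± 0.233) and Ile-TAT-2 (0.22 ± 0.231), also from genes with introns, did not pass either. As ratios to the other isodecoders of the anticodon, a test described below, Arg-TCT-5-1 and Arg-TCT-1-1 did pass. Their differences of the ratio were 0.55 ± 0.169 (limma adjusted p = 0.0219) and -0.49 ± 0.135 (limma adjusted p = 0.0118).

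Most anticodons with a passing tRNA also held isodecoders with differences near 0. For Ser-GCT the other 4 isodecoders lay between -0.28 and -0.14. For Ala-AGC the 4 most counted isodecoders, led by Ala-AGC-4 at -0.12 ± 0.187, lay between -0.13 and 0.06, beside 0.97 and 0.81 for the passing 2. Ala-AGC-10-1, with few counts, was at 0.98 ± 0.534 and did not pass. For Leu-CAA the other 3 lay between -0.19 and 0.32, and for Val-CAC the most counted, Val-CAC-2, was at -0.23 ± 0.172. Val-CAC-7-1 (0.96), Val-CAC-3-1 (0.46) and Val-CAC-5-1 (0.39) lay above 0 without passing. In Met-CAT 5 of the 6 isodecoders lay above 0, all but the most counted Met-CAT-1 (-0.10 ± 0.211), and in Tyr-GTA 4 of the 5 did. The assignment of reads that match several tRNA genes is not described in the labels or headers. Values of near-identical isodecoders of one anticodon are uncertain.

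**Figure D4:**
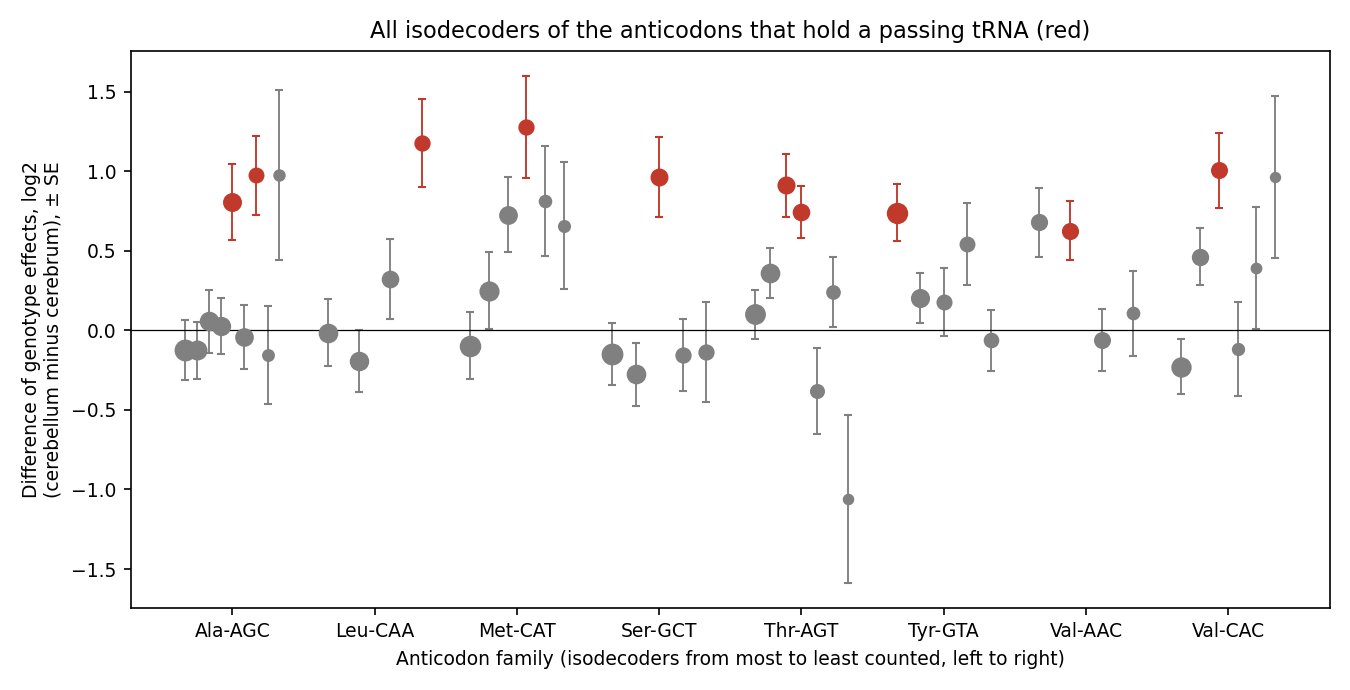
Difference of genotype effects (log2, cerebellum minus cerebrum) with its SE for every isodecoder of the 8 anticodons that hold a passing tRNA, ordered within each anticodon from most to least counted, with larger points for higher mean counts. The most counted isodecoder lies at 0.10 or below in 6 of the 8 anticodons, and in Tyr-GTA the most counted one passed (red).

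Summed over isodecoders, 1 of 72 anticodons passed, which is 1.39% of those tested. This was Tyr-GTA, with a difference of 0.74 ± 0.180 (edgeR adjusted p = 0.0179), in which Tyr-GTA-1 held 88.3% of the counts of the cerebrum wildtype libraries. The totals of the other 7 anticodons that hold a passing tRNA had differences from -0.07 for Ser-GCT to 0.54 for Val-AAC, and none passed. The lowest p-values after Tyr-GTA were those of Glu-CTC (-0.43), mitochondrial Phe-GAA (0.58), Val-AAC (0.54), mitochondrial Leu2-TAG (-0.46) and mitochondrial Tyr-GTA (0.44), with adjusted p from 0.136 to 0.232. Library scaling was computed anew on the totals, so they are not on the same scale as single tRNAs. Mitochondrial Phe-GAA, a single row in both fits, was 0.52 among single tRNAs. The Tyr-GTA call was lost with scaling to the spike-in, with scaling to the mitochondrial total, with the depth class as a covariate, within either depth class, and without cerebrum mutant 1 or 3.

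A ratio within one anticodon needs no scaling of libraries. Each nuclear isodecoder was therefore set against the sum of the other isodecoders of its anticodon. Of 174 tested, 33 passed (limma, Benjamini-Hochberg adjusted p under 0.05), which is 19.0%, 21 with a positive and 12 with a negative difference. They belonged to 17 of 42 anticodons. The 2 directions are tied, since a smaller share of one isodecoder is a larger share of the others: 10 of the 17 anticodons held passing isodecoders of both signs. Of the 12 negative ones 9 were the most counted of their anticodon, and of the 21 positive ones 2 were. Each of the 42 anticodons has a single most counted isodecoder among the 174 tested. A fall of a minor isodecoder raises the ratio of the most counted one by arithmetic, so these counts are only a description. In 31 of the 33, the change of the ratio was larger in cerebrum than in cerebellum, as it was in 116 of the 174. In all, 9 of the 10 tRNAs above, all but Val-AAC-2, passed here too.

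The 5 highest differences of the ratio were those of Met-CAT-4-1 (1.20), Leu-CAA-4-1 (1.19), Val-CAC-1-1 (1.13), Ser-GCT-1-1 (1.13) and Ala-AGC-1-1 (1.01). Leu-CAA-4-1 had the lowest adjusted p, 5.92e-05 (limma). Its share of all Leu-CAA counts was 2.28% to 3.57% in cerebrum wildtype libraries and 1.04% to 1.35% in cerebrum mutants. In cerebellum it was 2.94% to 3.87% and 2.98% to 3.58%. Cerebellum mutant 5, at 3.004%, lay within the range of the other cerebellum mutants in this share, whereas its CPM value did not. Ser-GCT-1-1 held 2.56% to 3.97% of Ser-GCT counts in cerebrum wildtype libraries, 1.17% to 2.01% in cerebrum mutants, 3.78% to 4.68% in cerebellum wildtype libraries and 3.82% to 5.10% in cerebellum mutants. The cerebrum mutants were separate for both shares and the cerebellum groups overlapped.

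On the negative side were Val-CAC-2 (-0.87), Tyr-GTA-2-1 (-0.75), Val-AAC-5-1 (-0.72), Lys-TTT-1 (-0.70) and Glu-CTC-1 (-0.62). Val-AAC-5-1 had the widest change of share among these. It held 17.4%, 20.4%, 16.1%, 19.9%, 20.5% and 22.3% of Val-AAC counts in cerebrum wildtype libraries and 29.5%, 24.7%, 31.0% and 30.4% in cerebrum mutants. In cerebellum it held 32.6% to 37.0% in wildtype libraries and 31.9% to 36.6% in mutants. Its own level in CPM had nearly equal genotype effects (difference -0.06 ± 0.196), while those of Val-AAC-2 and Val-AAC-4-1 differed by 0.63 and 0.68. Lys-TTT-1 held 95.3% or more and Glu-CTC-1 99.9% or more of its anticodon in every library. The ratio of Glu-CTC-1 thus rests on the few counts of its only sister, Glu-CTC-2-1. The differences of this pair mirror each other (-0.62 and 0.62), and both are counted among the 33. Passing shares numbered 23 with the depth class as a covariate (22 of the 33 among them), 22 within the shallow class (15 of the 33 among them) and 0 within the deep class, where 34 had an unadjusted p under 0.05 and all 33 had the same direction.

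**Figure D5:**
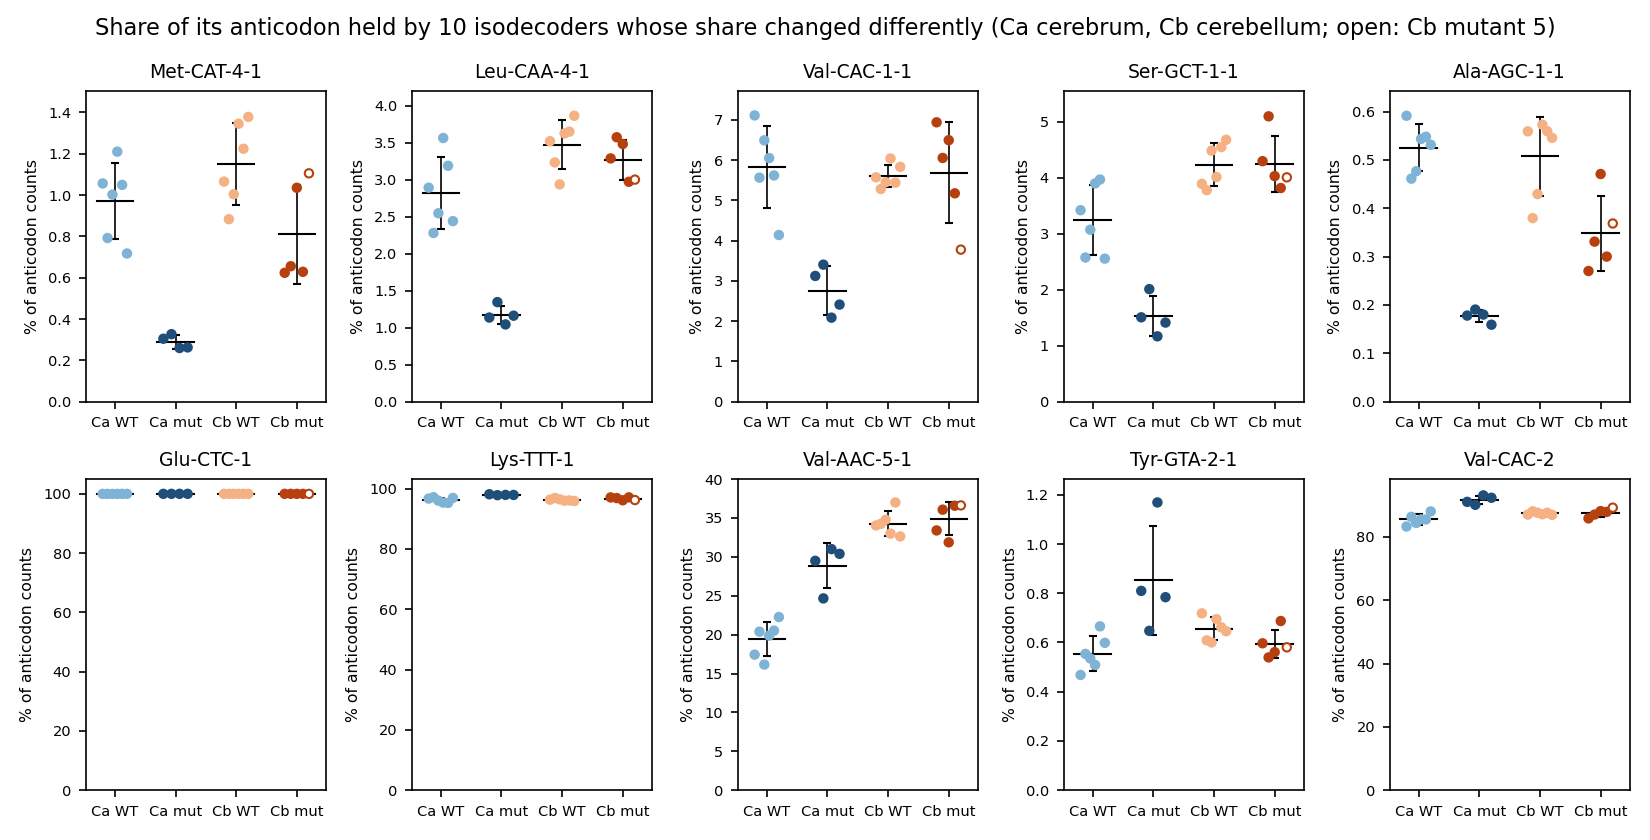
Share of the counts of its anticodon (percent, linear axis from 0) held by each of 10 isodecoders, 1 point per library, with mean and SD as bars and cerebellum mutant 5 as an open point. In the 5 upper panels the cerebrum mutants lie below the cerebrum wildtype libraries, and in the panel of Val-AAC-5-1 they lie above them at 24.7% to 31.0%, below the cerebellum libraries of both genotypes.

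Mitochondrial tRNAs gave no call. Under TMM scaling, which fixes levels relative to the bulk of tRNAs, their median fold change of mutant over wildtype was 0.50 in cerebrum and 0.40 in cerebellum, and the median difference over the 22 was -0.09, with 7 above and 15 below 0. Per spike-in count, the mitochondrial total was 0.043 higher in mutants than in wildtype libraries on the log2 scale in cerebrum, and the same difference was -0.17 in cerebellum. The median difference moved with single libraries. It was -0.19 without cerebellum mutant 1, -0.15 without mutant 5, -0.27 without both, -0.016 without mutant 2 and -0.039 without mutant 3. It was -0.24 within the deep cerebellum class, 0.26 within the shallow class, 0.026 with the depth class as a covariate and -0.29 with spike-in scaling. The ends of their range, chosen after the values were seen, were the phenylalanine tRNA mt-Tf (0.52 ± 0.198, edgeR adjusted p = 0.154) and the glutamine tRNA mt-Tq (-0.50 ± 0.253, edgeR adjusted p = 0.336). They lie at chrM:1-68 on the plus strand and chrM:3772-3842 on the minus strand of mm10, and GENCODE annotates each as a mitochondrial tRNA gene. The genes read as follows from 5′ to 3′, with the anticodon in capitals, shown because mt-Tf has the highest and mt-Tq the lowest value.
mt-Tf: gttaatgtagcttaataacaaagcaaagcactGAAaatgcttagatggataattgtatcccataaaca
mt-Tq: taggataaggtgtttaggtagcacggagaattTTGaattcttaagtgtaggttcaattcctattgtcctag

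The phenylalanine tRNA had 12400, 15780, 12960, 13450, 9148 and 12950 CPM in cerebrum wildtype libraries and 12210, 14870, 12380 and 13860 CPM in cerebrum mutants. In cerebellum it had 14900, 23160, 17200, 17970, 16660 and 15210 CPM in wildtype libraries and 34100, 25320, 21820, 24060 and 25480 CPM in mutants. The cerebrum groups overlapped fully, and 4 of the 5 cerebellum mutants lay above all cerebellum wildtype libraries. By position, the median difference was 0.02 for the 6 tRNAs on the plus strand upstream of COX1, -0.15 for the 8 downstream of it and -0.09 for the 8 on the minus strand.

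The counts were also reduced to 6 log2 ratios per library over whole classes of tRNA. For none of them did the difference of genotype effects pass after adjustment (exact two-sided permutation tests over all 97020 relabellings of genotype within tissue). Such relabelling assumes no genotype effect in either tissue, so an effect shared by both tissues widens its spread. The p-values are therefore not exact for the difference alone. With the common genotype effect removed before relabelling, none passed either. Mitochondrial to nuclear counts differed by 0.0015 ± 0.159 (SE, exact p = 0.995), since the ratio was 0.40 higher in the mutants of each tissue. Without cerebellum mutant 1 this difference was -0.096, without mutant 5 -0.054 and without both -0.20 (exact permutation p = 0.261 without both). Nuclear counts per spike-in count gave -0.21 ± 0.242 (exact p = 0.521), with mutant minus wildtype values of -0.36 in cerebrum and -0.57 in cerebellum. Mitochondrial counts per spike-in count gave -0.21 ± 0.270 (exact p = 0.431). The ratio of mitochondrial tRNAs of the plus strand to those of the minus strand gave -0.12 ± 0.067 (exact p = 0.0878, adjusted 0.527).

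The other 2 ratios concerned nuclear classes. The ratio of tRNAs with an anticodon starting with A to other nuclear tRNAs gave 0.10 ± 0.146 (exact p = 0.486), and 0.19 without cerebellum mutant 5 (exact permutation p = 0.111, adjusted 0.222). The ratio of tRNAs with a long variable arm (leucine, serine and selenocysteine) to the rest gave 0.14 ± 0.108 (exact p = 0.197). It was -2.60 to -2.37 in cerebrum wildtype libraries, -2.62 to -2.51 in cerebrum mutants, -2.88 to -2.70 in cerebellum wildtype libraries and -3.12 to -2.57 in cerebellum mutants, with mutant 5 the lowest. Without cerebellum mutant 5 it was 0.22 (exact permutation p = 0.0059, adjusted 0.0354), and without mutants 1 and 5 it was 0.24 (exact permutation p = 0.0078, adjusted 0.0469).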

How the data were processed

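Transfer RNA was sequenced from cerebrum and cerebellum with the QuantM protocol. The authors deposited whole-number counts per tRNA, 1 table for each tissue, and tables of log2 fold changes from their own comparisons. The submitters' processing notes name cutadapt, Bowtie2, featureCounts, DESeq2 and the build mm10, without versions. Deposited counts were used as they are. The tables list 209 and 208 tRNAs, 204 in both; the spike-in row stayed out of library sizes. CPM values were scaled by TMM.

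All 21 libraries entered 1 fit with a coefficient per group (R 4.3.3, edgeR 4.0.16, quasi-likelihood, robust, filterByExpr with a minimum count of 10), tested on simulated data first. Shares within an anticodon used limma 3.58.1 on log2 ratios with 0.5 added to both counts. P-values were adjusted over each whole table, with a threshold of 0.05. Alternatives included DESeq2 1.42.0, other scalings, filters, depth classes (limit 3000000 counts) and each library left out. The fits without cerebellum mutants 1 and 5, those within a depth class, and the depth class as a covariate for shares were chosen after seeing the data, as was the scale that places libraries between the tissues.

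No 2 libraries of a group agreed within sampling noise (lowest chi-square per degree of freedom 45.1). Depth limits rare tRNAs: the standard error of a difference had a median of 0.225 over all 204. The members, lists and tests were chosen with earlier results of these data known. Text names all passing tRNAs, the lowest p-values up to 20, the 3 next by p, and always initiator methionine, selenocysteine, Arg-TCT and Ile-TAT tRNAs; of anticodons all passing, at least 6 by lowest p; of shares 5 from each side. Mitochondrial sequences come from GENCODE M21.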

Additional observations from a re-analysis of the deposited data

Results flagged for a closer look

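The genotype effects of 10 tRNAs differed between cerebellum and cerebrum by the test of the difference itself (edgeR interaction contrast, adjusted p from 0.00916 to 0.0437): Thr-AGT-6-1 (0.91), Thr-AGT-5-1 (0.74), Val-CAC-1-1 (1.01), Leu-CAA-4-1 (1.18), Tyr-GTA-1 (0.74), Met-CAT-4-1 (1.28), Ala-AGC-1-1 (0.97), Ser-GCT-1-1 (0.96), Val-AAC-2 (0.63) and Ala-AGC-5 (0.81). The Tyr-GTA total differed by 0.74. Among the shares, the named isodecoders with a difference were Met-CAT-4-1 (1.20), Leu-CAA-4-1 (1.19), Val-CAC-1-1 (1.13), Ser-GCT-1-1 (1.13), Ala-AGC-1-1 (1.01), Glu-CTC-1 (-0.62), Lys-TTT-1 (-0.70), Val-AAC-5-1 (-0.72), Tyr-GTA-2-1 (-0.75) and Val-CAC-2 (-0.87).

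A single library stood far from the rest of its group in 16 of 144 groups of values examined, where chance flags about 1 in 20. Cerebellum mutant 5 accounted for 6: it was the highest cerebellum mutant for Lys-TTT-2 (3240 CPM, next 1651), SeC-TCA-1-1 (1929, next 1307), iMet-CAT-1 (19720, next 12260), iMet-CAT-2-1 (61.0, next 31.8) and iMet-CAT-3-1 (251.6, next 122.0), and the lowest in the log2 ratio of tRNAs with an anticodon starting with A to other nuclear tRNAs (-3.11, next -2.66). Cerebrum mutant 1 was highest for Arg-TCT-1-1 (5068 CPM) and lowest for Ile-TAT-1-1 (2328 CPM). Cerebellum mutant 3 was highest for Met-CAT-4-1 (382.9 CPM), and cerebrum mutant 2 for Val-CAC-1-1 (190.8 CPM).

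Among wildtype libraries, cerebrum 6 was lowest for Val-CAC-1-1 (199.4 CPM) and in the ratio of long variable arm tRNAs (-2.60), and cerebrum 1 was lowest in the mitochondrial to nuclear ratio (-3.11). Cerebellum 3 was highest for Arg-TCT-1-1 (5018 CPM), cerebellum 2 for mitochondrial Phe-GAA (23160 CPM), and cerebellum 5 lowest in the ratio of the mitochondrial strands (1.31).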

How the results depend on the processing

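All 10 tRNAs kept a positive difference under every alternative, and all 33 shares kept their direction wherever they were tested. The number of passing tRNAs was 0 with spike-in scaling (14 at an unadjusted p under 0.05), 17 with DESeq2 (16 positive, 1 negative), 24 with limma-voom and quality weights (18 positive, 6 negative), 3 with the depth class as a covariate, 27 without cerebellum mutants 1 and 5 (15 positive, 12 negative), 0 in the deep class (edgeR) and 2 in the shallow class. It was 7 with scaling to the mitochondrial total, 8 with library totals and 8 with sex as a covariate. Val-AAC-2 and Ala-AGC-5 were lost in each of these, and Ala-AGC-1-1 with mitochondrial scaling. With the correlation of same-numbered libraries, a mean count of at least 50 or nuclear tRNAs only, 1 negative difference passed. Leaving out 1 library gave 7 to 21 passing, with 0 to 6 negative; the 21 came without cerebellum mutant 5. Of the 10, 7 passed in all 21 such fits.

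At the anticodon level 0 passed with mitochondrial scaling, spike-in scaling, the depth class as a covariate or the deep class (edgeR, 1 at an unadjusted p under 0.05 in the deep class), 3 with quality weights (2 positive, 1 negative), 2 without cerebellum mutants 1 and 5 (1 negative), 3 in the shallow class, and 0 to 4 with 1 library left out. Of the shares 0 passed in the deep class and 22 in the shallow class, 11 of them positive.

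The replicate block gave 28 passing tRNAs (17 positive, 11 negative), 2 anticodons (1 negative) and 40 shares; it leaves out cerebellum mutant 5, which has no partner. Same-numbered libraries had the same sex in 10 of 10 pairs, but their deviations correlated between -0.176 and 0.447, over 0.1 in 5 of 10 and best with the own number in 4, so the numbers were not taken as pairs. The mitochondrial to nuclear ratio was -0.054 with the block, -0.20 without cerebellum mutants 1 and 5, and -0.096 to 0.085 with 1 library left out, and the long variable arm ratio 0.084 to 0.22, and 0.24 without those 2.

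With spike-in scaling Arg-TCT-2-1 was -0.056, Arg-TCT-4-1 -0.0885, Ile-TAT-1-1 -0.17 and Ile-TAT-2 -0.046. With the depth class as a covariate Arg-TCT-2-1 was -0.042 and Ile-TAT-1-1 -0.13. Ile-TAT-1-1 was -0.11 in the deep class and -0.16 in the shallow class, where Arg-TCT-2-1 was -0.14 and Arg-TCT-4-1 -0.079. In the deep class iMet-CAT-2-1 was 0.44 and iMet-CAT-3-1 0.65. Arg-TCT-3-1 was 0.021 with quality weights. With 1 library left out, ranges were -0.10 to 0.26 for Arg-TCT-2-1, -0.26 to 0.050 for Arg-TCT-3-1, -0.067 to 0.18 for Arg-TCT-4-1 and -0.10 to 0.18 for Ile-TAT-1-1. The causes were not tested.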

Other observations

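The share test named further anticodons in which isodecoders moved apart more in the cerebrum than in the cerebellum. In Gly-GCC, a glycine family, Gly-GCC-1 had a difference of 0.54 ± 0.164 (log2 ratio of the share, limma adjusted p = 0.0212) and Gly-GCC-4-1 one of -0.43 ± 0.115 (limma adjusted p = 0.00992). In Phe-GAA the pair was Phe-GAA-2-1 (0.68 ± 0.204, limma adjusted p = 0.0207) and Phe-GAA-1 (-0.43 ± 0.095, limma adjusted p = 0.00251), and in Lys-TTT it was Lys-TTT-2 (0.76 ± 0.185) and Lys-TTT-1 (-0.70 ± 0.186).

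Among the 33 passing shares, only the 2 of Ser-AGA changed more in cerebellum than in cerebrum: Ser-AGA-3-1 by -0.09 in cerebrum and 0.48 in cerebellum (difference 0.57 ± 0.193, limma adjusted p = 0.0401), and Ser-AGA-2 by 0.03 and -0.54 (difference -0.57 ± 0.175, limma adjusted p = 0.0229). Both lie near the threshold, and these names were chosen after their values were seen.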
